A study of Glycine max with 47 samples.

Results

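Roots of the resistant soybean cultivar MN1806CN were set against roots of the susceptible cultivar PI518671 (Williams 82) while both pests were on the plant, 5 days after the aphids were added. The comparison consists of the 6 libraries that the labels assign to the combined treatment at this time, 3 for each cultivar, out of 47 libraries in the series. The series covers the 2 cultivars under 4 treatments, with the soybean cyst nematode (SCN), the soybean aphid (SBA), both together (SCN:SBA) or neither (control), at 5 and 30 days post infestation (dpi). The main question put here is which transcripts separate the cultivars when the nematode is in the root and the aphid on the shoot, and how far that separation differs from the one seen with a single pest or none.

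The 3 MN1806CN SCN:SBA libraries came from roots of a cultivar resistant to the nematode population used (HG type 0) but susceptible to the aphid. The 3 PI518671 SCN:SBA libraries came from Williams 82, susceptible to both pests. Plants of both cultivars received about 2000 nematode eggs in the cone-tainer at planting and 15 biotype 1 aphids at the second vegetative stage, and whole roots were taken 5 days later from the greenhouse. Each library stands for 1 of the 3 biological replicates of its group. The reference transcripts were those of Williams 82, so that in MN1806CN the absence of a transcript and the failure of diverged reads to match cannot be told apart. In whole roots, fewer cells of a type and less RNA per cell cannot be told apart either.

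The soybean cyst nematode is a sedentary parasite. Its juveniles enter the root, migrate to the vascular cylinder and induce a syncytium, a multinucleate feeding site formed by the fusion of neighbouring cells, on which the female feeds until it becomes a cyst. In resistant soybean the young syncytium degenerates. The soybean aphid feeds on phloem sap in the leaves and reaches the root only through the plant's systemic signals and its supply of assimilates. The gene IDs of the table carry no names in the sources used here, so genes are described by level, by behaviour over the groups and by the chromosome number in the ID.

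Of 55983 genes in the table, 43122 were tested, those that came to 0.5 CPM or more in some library of the series (CPM is a gene's count scaled to a common library total). Under SCN:SBA at 5 dpi, 355 genes differed between the cultivars, which is 0.823% of those tested. Of these, 162 were higher in MN1806CN (0.376%) and 193 were lower (0.448%). The test was edgeR's quasi-likelihood F test, two-sided, fitted on the 24 libraries of 5 dpi, and a gene was called when its Benjamini-Hochberg adjusted p was below 0.05. Over all tested genes the median log2 fold change of MN1806CN over PI518671 was −0.0193, and the median of its size was 0.365.

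The called genes differed widely. Among the 162 that were higher in MN1806CN, the median log2 fold change was 3.9, with quartiles of 2.41 and 6.25, and the median level was 9.86 CPM in MN1806CN and 0.514 CPM in PI518671. Among the 193 that were lower, the median was −3.75, with quartiles of −6.38 and −2.29, and the median level was 0.437 CPM in MN1806CN and 6.42 CPM in PI518671. Changes over 1 on the log2 scale made up 157 of the 162 and 192 of the 193. In 161 and 192 genes, the 3 libraries of one cultivar did not overlap those of the other. Such separation alone was found in 18.7% of all tested genes (8.04% higher and 10.7% lower), so that it is far more common than a call. In 19 of the higher genes all 3 PI518671 libraries held 0 counts, and in 29 of the lower genes all 3 MN1806CN libraries did. With those genes set to the bound that 3 counts per library allow, the medians were 3.21 and −3.23.

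The size of the smallest called change differed with abundance, without a steady fall. It was 2 among genes with a mean under 1 CPM over the 6 libraries and 1.48 at 1 to 5 CPM. At 5 to 20 CPM it was 0.996, at 20 to 100 CPM 0.886 and above 100 CPM 1.18. The share of genes called was 0.745% under 1 CPM, 1.36% at 1 to 5 CPM, 0.789% at 5 to 20 CPM, 0.45% at 20 to 100 CPM and 0.85% above 100 CPM. The last class held 13 called genes. In 10 of these, group means were 165 to 880 CPM in MN1806CN and 9.49 to 125 CPM in PI518671. In the other 3, means were 0.574 to 122 CPM in MN1806CN and 207 to 324 CPM in PI518671. Among the higher genes, 81 of 162 averaged under 0.5 CPM in PI518671, and among the lower genes, 99 of 193 averaged under 0.5 CPM in MN1806CN. In these 6 libraries 0.5 CPM stood for 7.35 to 24 counts, so a mean below it is not absence. About as many called genes thus averaged at least 0.5 CPM in both cultivars as averaged less in the cultivar with the lower level.

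A stricter look at near absence left few genes. With at most 3 counts in each of the 3 MN1806CN libraries and at least 5 CPM in each PI518671 library, 6 genes remained (0.0139% of those tested), with up to 29.9 CPM in PI518671. Of these, 0 kept to at most 3 counts in all 20 other MN1806CN libraries of the series. At a looser limit, 3 stayed under 0.5 CPM in all of those 20. In all 21 other PI518671 libraries, 5 of the 6 were at or above 0.5 CPM. In the other direction, 3 genes were at or near 0 in PI518671 (0.00696%) and reached up to 12.4 CPM in MN1806CN. Of these, 0 kept to at most 3 counts in all 21 other PI518671 libraries, and 2 stayed under 0.5 CPM in all of them.

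Individual genes show what the calls look like. The largest increase among genes with at least 10 CPM in each MN1806CN library belonged to Glyma.03g171700, on chromosome 3. It had 10.4, 10.3 and 16.5 CPM in the MN1806CN libraries, against 0.108, 0.0626 and 0 CPM in those of PI518671. The libraries of one cultivar were thus all far from those of the other, and the log2 fold change was 7.57 (standard error 0.73, edgeR adjusted p = 3.92e-06). Over the counts, 651 in MN1806CN and 5 in PI518671, the ratio of the summed rates was 199, with an exact 95% interval of 85 to 616 that covers counting error only. In the 12 libraries of each cultivar at 5 dpi, this gene lay between 4.65 and 16.8 CPM in MN1806CN (median 10.35) and between 0 and 0.108 CPM in PI518671 (median 0.0221), whatever the treatment.

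The 2 largest decreases under the same rule also held across treatments. Glyma.01g012700, on chromosome 1, had 0 CPM in all 3 MN1806CN libraries and 14.2, 16.3 and 10.3 CPM in the PI518671 libraries. Taken against the 3 counts per library that a count of 0 allows, it was at least 79.6-fold lower in MN1806CN, and the fitted log2 fold change was −10.91 (standard error 0.98, edgeR adjusted p = 3.84e-06), a value that depends on the prior count. At 5 dpi it did not exceed 0.203 CPM in any of 12 MN1806CN libraries (median 0) and lay between 7.52 and 16.3 CPM in the 12 of PI518671 (median 10.85). At 30 dpi it reached 1.5 CPM among the 11 MN1806CN libraries (median 0), against 2.91 to 9.38 CPM in PI518671. Glyma.18g166600, on chromosome 18, had 0.0595, 0 and 0 CPM in MN1806CN, against 31.1, 32.1 and 26.7 CPM in PI518671. It was nearly absent from MN1806CN SCN:SBA roots, with 1 count in all, and the log2 fold change was −10.15 (standard error 0.74, edgeR adjusted p = 2.21e-07), a value that again depends on the prior count. It was −12.06 without MN1806CN replicate 1, which held that count, and −9.65 without replicate 2. The ratio of summed rates, PI518671 over MN1806CN, was 1630 with an exact 95% interval of 293 to 64600. Over all 5 dpi libraries its range was 0 to 1.29 CPM in MN1806CN and 21.3 to 46.7 CPM in PI518671.

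**Figure D1:**
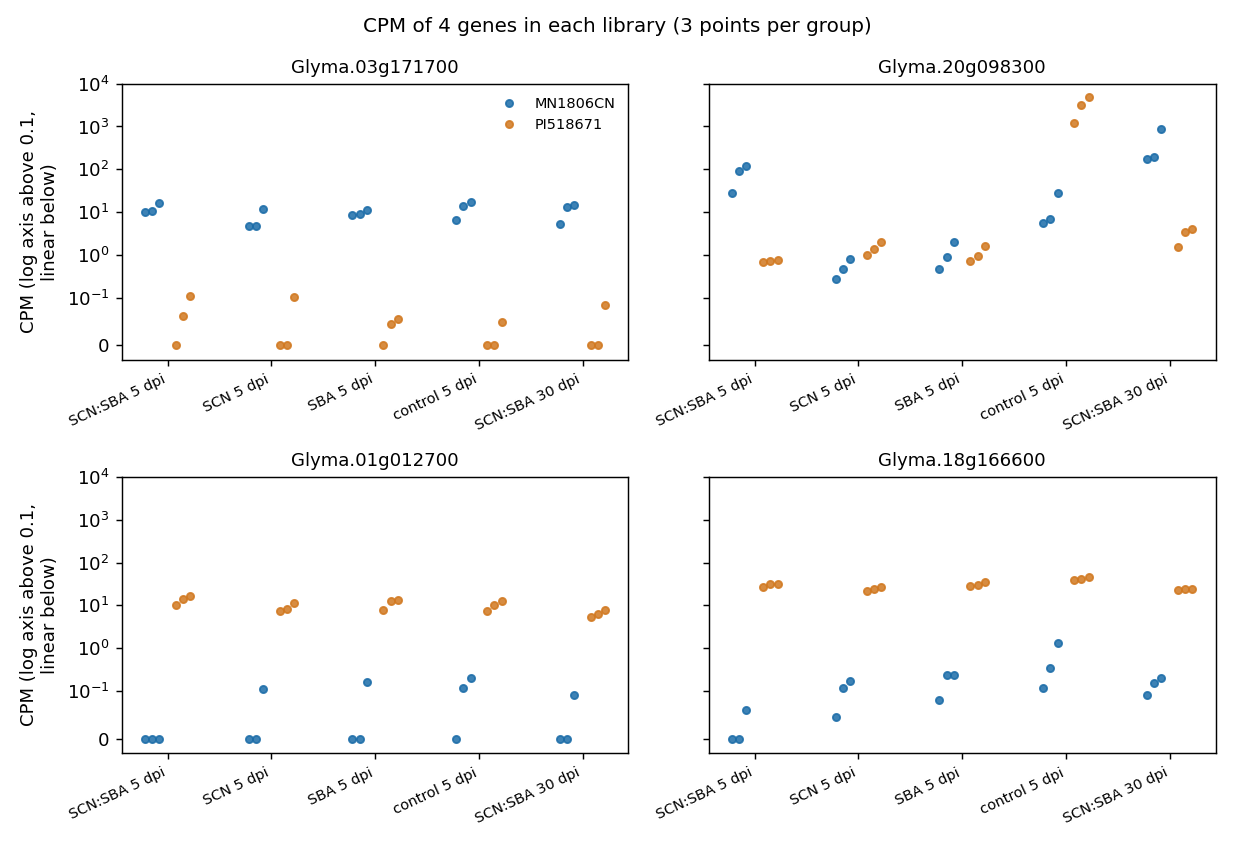
CPM of 4 genes (1 panel each, log axis above 0.1 CPM and linear below) in every library of 5 dpi and in the SCN:SBA libraries of 30 dpi, 1 point per library, MN1806CN left of PI518671 in each pair. In 3 genes the cultivars stay apart under every treatment, while Glyma.20g098300 changes its order and peaks at 1220 to 4870 CPM in the PI518671 controls.

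The fourth gene, Glyma.20g098300 on chromosome 20, behaved in another way. Under SCN:SBA at 5 dpi it had 91.5, 122 and 27.6 CPM in MN1806CN, against 0.703, 0.71 and 0.748 CPM in PI518671. The log2 fold change was 6.83 (standard error 0.87, edgeR adjusted p = 0.000168). With SCN alone it had 0.274, 0.798 and 0.472 CPM in MN1806CN and 1.01, 2.01 and 1.37 CPM in PI518671, and with SBA alone it stayed between 0.476 and 1.99 CPM in MN1806CN and between 0.716 and 1.61 CPM in PI518671. Neither pest alone was thus accompanied by the high level in MN1806CN roots. In the controls the order was turned round, with 5.47, 28 and 6.91 CPM in MN1806CN and 1220, 3100 and 4870 CPM in PI518671. It was also high under SCN:SBA at 30 dpi in MN1806CN (173, 196 and 869 CPM), against 3.5, 4.13 and 1.5 CPM in PI518671. The cultivar difference under SCN:SBA exceeded that under SCN by 8.37 on the log2 scale (standard error 1.16, edgeR adjusted p = 0.022) and that in controls by 15.14 (edgeR adjusted p = 1.6e-06). Set against SBA alone the value was 6.71, which did not pass the test (edgeR adjusted p = 0.19).

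At 5 dpi the number of genes that separated the cultivars was smallest under the combined treatment, while at 30 dpi it was larger under that treatment than in any comparison of 5 dpi. In the same fit, SCN alone gave 3311 genes (7.68%), 1739 higher and 1572 lower in MN1806CN, SBA alone gave 1567 (3.63%), 1178 and 389, and the controls gave 9703 (22.5%), 5441 and 4262. Under SCN:SBA at 30 dpi, in a fit of the 23 libraries of that time, the number was 12679 (29.4%), 5438 and 7241. The median size of the log2 fold change over all tested genes followed the same order at 5 dpi, with 0.365 under SCN:SBA, 0.588 under SCN, 0.502 under SBA and 0.728 in controls. Under SCN:SBA at 30 dpi it was 0.614, below that of the 5 dpi controls, although more genes were called. The larger number of calls at 30 dpi thus does not mean larger changes than in those controls. A count of calls depends on the spread between replicates as well as on the size of the changes. The median SD of log2(CPM + 1) was 0.227 in the MN1806CN SCN:SBA libraries and 0.42 in those of PI518671, against 0.292 in the PI518671 SCN libraries and 0.493 in the PI518671 controls.

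**Figure D2:**
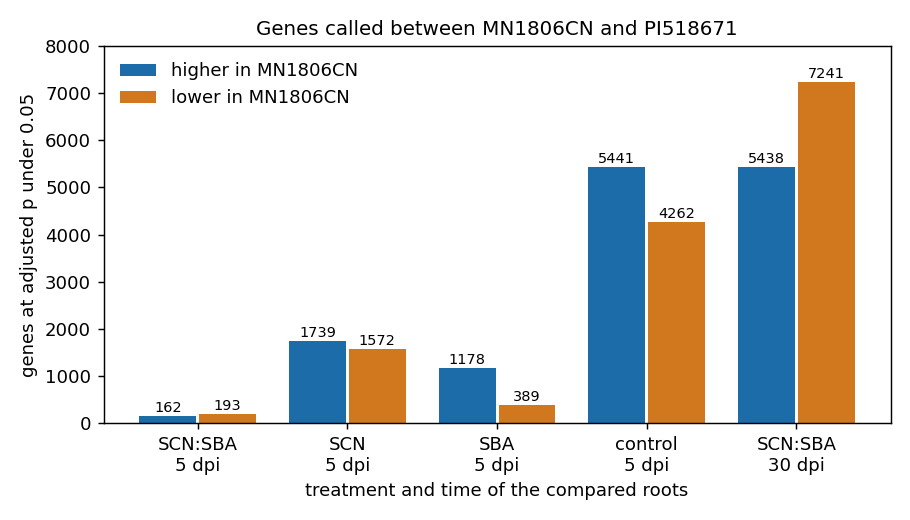
Number of genes called between the cultivars at an adjusted p under 0.05 (vertical axis) for each treatment and time (horizontal axis), blue bars for genes higher and orange bars for genes lower in MN1806CN, with 3 libraries per group. SCN:SBA at 5 dpi has the shortest pair of bars, 162 and 193 genes.

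PI518671 SCN:SBA replicate 3 stood apart from the other 2 libraries of its group. Pearson's r across genes on the log2(CPM + 1) scale was 0.979 between replicates 1 and 2 and 0.888 between each of them and replicate 3, while the 3 MN1806CN libraries had 0.961 to 0.965 with each other and libraries of different cultivars 0.888 to 0.957. Among 25385 genes with a mean of at least 5 CPM, replicate 3 was lower than the mean of replicates 1 and 2 by more than 1 on that scale in 5842 genes (23%) and higher in 2321 (9.14%). Total estimated counts were 16806607 to 19286899 in MN1806CN and 14700125 to 47902174 in PI518671. Without replicate 3, 277 genes were called, 235 of the 355 among them. The number was lowest, 172, without MN1806CN replicate 1, and all of those were among the 355. It was 211 without PI518671 replicate 2, 218 without PI518671 replicate 1, 216 without MN1806CN replicate 2 and 219 without MN1806CN replicate 3. None of the 355 changed sign when any 1 of the 6 libraries was left out.

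The labels were checked on genes chosen in the 30 dpi libraries alone, 7 that mark MN1806CN and 16 that mark PI518671 there. The markers of MN1806CN summed to 515 to 1590 CPM in the MN1806CN SCN:SBA libraries and to 9.3, 12.8 and 84.3 CPM in replicates 1, 2 and 3 of PI518671, and the markers of PI518671 summed to 1.3 to 2.19 CPM in MN1806CN and to 391 to 611 CPM in PI518671. All 23 separated the 3 and 3 libraries without overlap in the direction of the label. PI518671 replicate 3 held the most of the MN1806CN markers, and the log2 ratio of its 2 sums was −2.21, against −6.5 to −4.21 in the other PI518671 libraries of 5 dpi. The part of RNA or reads of the other cultivar in that library was not tested. Over all 12 and 12 libraries of 5 dpi, the 7 markers of MN1806CN and 10 of the 16 markers of PI518671 had no overlap between the cultivars.

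The 355 genes were followed through the other comparisons of the cultivars, which rest on different libraries but not all on different fits. The comparisons with SCN, with SBA and in the controls came from the same fit as the 355 calls. They share its estimate of the spread between replicates, so their calls are not independent of the 355. Only the comparison at 30 dpi came from a separate fit. How far the shared estimate raises the shares of genes called again was not tested. Among the 162 higher genes, 102 (63%) were called in the same direction with SCN alone, where 4.03% of all genes were called that way, 109 (67.3%) with SBA alone (2.73% of all genes), 84 (51.9%) in the controls (12.6%) and 143 (88.3%) under SCN:SBA at 30 dpi (12.6%). Among the 193 lower genes, the numbers were 150 (77.7%) with SCN (3.65% of all genes), 130 (67.4%) with SBA (0.902%), 111 (57.5%) in the controls (9.88%) and 147 (76.2%) under SCN:SBA at 30 dpi (16.8%). Calls in the opposite direction were 0 with SCN, 1 with SBA and 0 at 30 dpi, but 52 in the controls. These were 42 of the higher genes (25.9%, against 9.88% of all genes) and 10 of the lower genes (5.18%, against 12.6%). Only the higher genes thus exceeded the share of all genes.

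The genes that kept their direction everywhere form the largest class. A total of 61 higher and 86 lower genes were called the same way in all 4 other comparisons. The 61 had a median of 5.07 CPM in MN1806CN and 0.217 CPM in PI518671 under SCN:SBA. Over the 5 treatments and times compared, the medians stayed between 4.42 and 6.03 CPM in MN1806CN and between 0.0956 and 0.219 CPM in PI518671. The 86 had 0.0594 CPM in MN1806CN and 4.17 CPM in PI518671 under SCN:SBA, with medians of 0.0558 to 0.128 CPM in MN1806CN and 2.89 to 4.17 CPM in PI518671. The lower level of each class was at its extreme in the controls, where it was lowest for the 61 genes (0.0956 CPM in PI518671) and highest for the 86 (0.128 CPM in MN1806CN). Over all 47 libraries, 56 of the 162 higher genes (34.6%) and 61 of the 193 lower genes (31.6%) had no overlap at all between the cultivars, a pattern found in 66 (0.153%) and 67 (0.155%) of all tested genes. The 47 include the 6 libraries on which the genes were called, so part of this excess follows from their choice. With 1 of the 6 libraries left out, 45 to 57 of the 61 and 62 to 79 of the 86 were still called, and with the 6 libraries fitted alone 32 of the 61 and 31 of the 86.

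**Figure D3:**
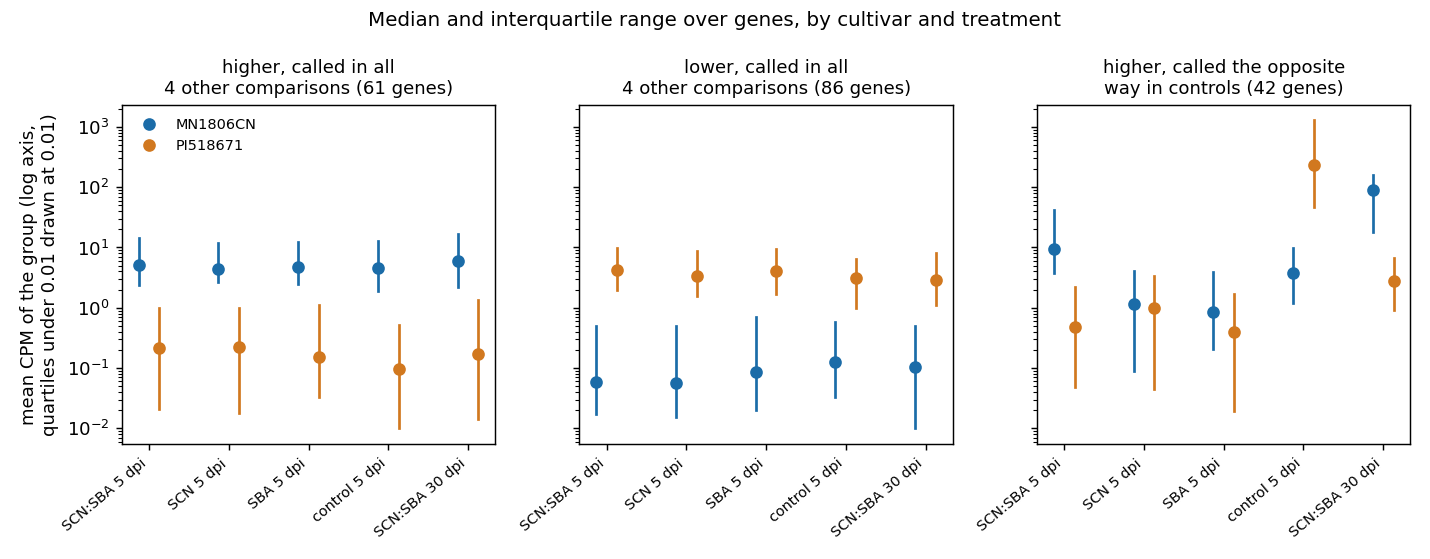
Mean CPM of a group (log axis) for 3 classes of called genes, as the median (point) and interquartile range (line) over the genes of a class, by treatment and time, MN1806CN in blue left of PI518671 in orange. The first 2 classes keep their separation in every treatment, and the third reaches a median of 235 CPM in the PI518671 controls.

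Another class turned round in the controls. Of the 162 higher genes, 42 (25.9%) were called lower in MN1806CN than in PI518671 when neither pest was present, which was the case for 9.88% of all tested genes. Their median was 9.46 CPM in MN1806CN and 0.475 CPM in PI518671 under SCN:SBA, 1.15 and 1 CPM with SCN, 0.863 and 0.402 CPM with SBA, and 3.81 and 235 CPM in the controls. In 41 of the 42, the PI518671 control had the highest mean of the 8 groups of 5 dpi. The choice of the genes favours this, since it required a higher level in the PI518671 controls than in those of MN1806CN. Under SCN:SBA at 30 dpi, 40 of the 42 were again higher in MN1806CN, with medians of 89.1 CPM in MN1806CN and 2.83 CPM in PI518671. With SCN alone 7 of the 42 (16.7%) were called higher in MN1806CN, against 4.03% of all tested genes, and with SBA alone 7 (16.7%), against 2.73%.

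Summed over the 42 genes, the 3 MN1806CN SCN:SBA libraries of 5 dpi held 2420, 1580 and 1100 CPM, against 274, 297 and 302 CPM in PI518671. The controls held 842, 1010 and 1040 CPM in MN1806CN and 15800, 49300 and 51100 CPM in PI518671. At 30 dpi the SCN:SBA libraries held 2530, 4350 and 12400 CPM in MN1806CN and 526, 585 and 616 CPM in PI518671. With SCN alone they held 1330, 1020 and 979 CPM in MN1806CN and 412, 401 and 301 CPM in PI518671, and with SBA alone 898, 555 and 831 CPM in MN1806CN and 262, 355 and 315 CPM in PI518671. The sums were thus highest in the PI518671 controls. With either pest alone, as with both, the sums of MN1806CN stood above those of PI518671 without overlap. A sum is carried by its most abundant genes, and 1 gene of the class averaged 646 CPM in MN1806CN and 90.3 CPM in PI518671 under SCN:SBA. Gene by gene the order was weaker with a single pest. The median log2 fold change was 0.644 with SCN and 1.52 with SBA, against 4.76 under SCN:SBA, and 7 of the 42 were called higher with each pest. Under SCN:SBA at 5 dpi and in the controls, the order of the cultivars follows from the choice of the genes. The calls of these genes under SCN:SBA were less stable than those of the first class, as 10 to 31 of the 42 were still called with 1 of the 6 libraries left out (10 without PI518671 replicate 2, 31 without MN1806CN replicate 3) and 13 with the 6 libraries fitted alone. The turn in the controls held for 39 to 42 of them with any 1 control or SCN:SBA library left out.

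The most abundant genes of this class were set as a ratio of their level in each MN1806CN control to that in the PI518671 controls. Within a library this ratio varied less between genes than under SCN:SBA, and its median differed between libraries (0.19%, 0.906% and 0.19% in replicates 1, 2 and 3). The upper quartile was 1.81, 1.12 and 1.43 times the lower in these replicates. For the 16 genes above 500 CPM in the PI518671 controls, the quartiles of the ratio were 0.178% and 0.321% in MN1806CN control replicate 1, 0.868% and 0.973% in replicate 2 and 0.159% and 0.228% in replicate 3. In the MN1806CN SCN:SBA libraries of 5 dpi the same ratio spread more widely between genes, from 0.129% to 4.82% in replicate 1, 0.495% to 4.02% in replicate 2 and 0.141% to 1.05% in replicate 3, again as quartiles. The part of carry-over between libraries in these levels was not tested.

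**Figure D4:**
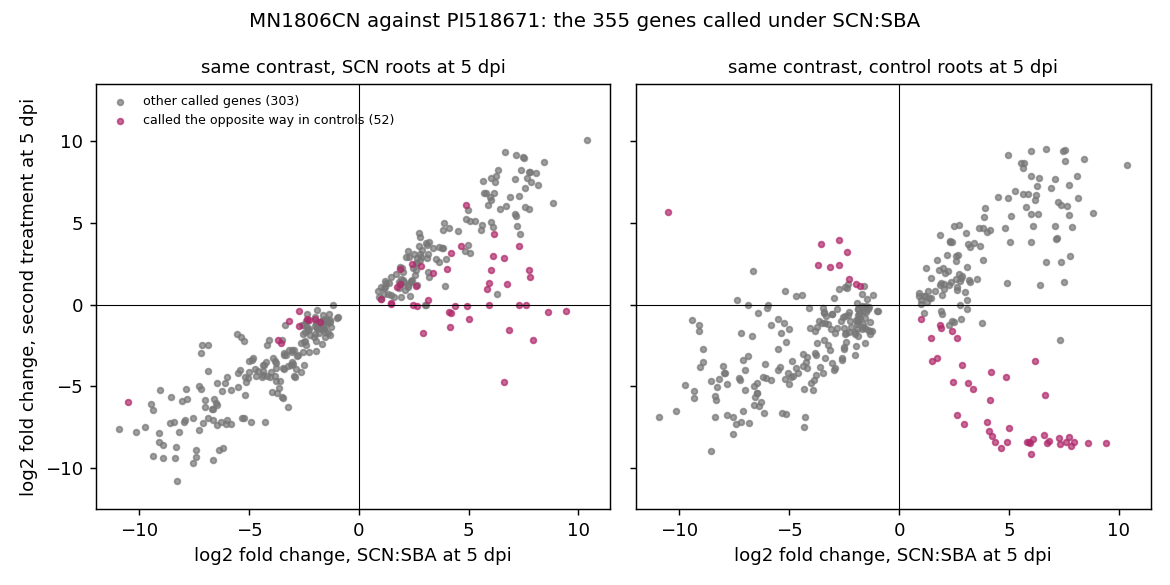
Log2 fold change of MN1806CN over PI518671 for the 355 genes called under SCN:SBA at 5 dpi (horizontal axis), against the same contrast with SCN alone (left) and in controls (right), 1 point per gene. The 52 genes called the opposite way in controls, in purple, fall into the opposite quadrants of the right panel, 42 of them at lower right.

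The remaining classes were small. Of the 193 lower genes, 10 (5.18%) were called higher in MN1806CN in the controls, a smaller share than the 12.6% of all tested genes called that way. They had medians of 1.08 CPM in MN1806CN and 7.75 CPM in PI518671 under SCN:SBA, and of 1.99 and 0.363 CPM in the controls. With 1 library left out, 1 to 7 of the 10 were still called under SCN:SBA (1 without MN1806CN replicate 2) and 3 to 10 were still called the opposite way in controls (3 without PI518671 control replicate 3). No other comparison gave the same call for 2 higher and 12 lower genes. The 2 higher ones had a median log2 fold change of 2.04 under SCN:SBA, and of 0.179 with SCN, −0.577 with SBA, −0.296 in controls and −0.0134 at 30 dpi. The 12 lower ones had −2.08 under SCN:SBA, −1.1 with SCN, −0.972 with SBA, −0.486 in controls and −0.0857 at 30 dpi. These genes were chosen for their calls, so the values are a description, and the difference between treatments was tested separately for every gene.

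In that test, the cultivar difference under SCN:SBA at 5 dpi differed from the cultivar difference in the controls in 5736 genes (13.3% of those tested), 107 of which were among the 355. It was higher under SCN:SBA in 2504 genes (5.81%), with median log2 fold changes of 0.461 under SCN:SBA and −1.54 in controls, and lower in 3232 (7.5%), with medians of −0.502 under SCN:SBA and 2.26 in controls. In both sets most of the distance lay in the controls. The same genes had medians of 0.0452 and −0.0236 with SCN alone, and of 0.129 and 0.106 with SBA alone. On the first principal component, PI518671 control replicates 2 and 3 stood apart with scores of 239 and 276, while replicate 1, at 65.8, lay within the range of the other libraries of 5 dpi (−127 to 90.6). On the second component the 3 PI518671 controls had scores of −140 to −129, against −84.3 to 124 in the others. Without replicate 3 of that group the number of genes was 3332, and without replicate 1 it was 9612.

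Against the single pests few genes passed the test. The cultivar difference under SCN:SBA differed from that under SCN in 1 gene (0.00232%), Glyma.20g098300, and from that under SBA in 0 genes, the smallest adjusted p from edgeR being 0.19. At an unadjusted p under 0.05 there were 3992 genes (9.26%) and 2480 genes (5.75%), and the DESeq2 Wald test called 88 genes in each of the 2 comparisons. The gene of the SCN comparison was no longer called when PI518671 SCN replicate 2 or 3, any MN1806CN SCN replicate, any PI518671 SCN:SBA replicate or MN1806CN SCN:SBA replicate 2 was left out.

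Between the times, the cultivar difference under SCN:SBA differed in 744 genes (1.73%), 17 of them among the 355. In 389 genes it was higher at 5 dpi than at 30 dpi, with medians of −0.127 at 5 dpi and −2.73 at 30 dpi, and in 355 other genes it was lower at 5 dpi, with medians of −0.298 at 5 dpi and 1.77 at 30 dpi. The separation of these genes was thus seen at the later time. Plants of the 2 times stood in different water baths, so time and water bath cannot be told apart. The number was 68 without MN1806CN 30 dpi replicate 3 and 1143 without replicate 2 of that group.

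Although few genes passed the threshold at 5 dpi, most genes called under SCN:SBA at 30 dpi had the same sign at 5 dpi. Over all tested genes the median log2 fold change under SCN:SBA at 5 dpi was −0.0193. Of the 5438 genes higher in MN1806CN at 30 dpi, 71.5% had a positive log2 fold change under SCN:SBA at 5 dpi, with a median of 0.248, and of the 7241 lower genes 84.9% had a negative one, with a median of −0.571. With SCN alone at 5 dpi the shares were 70.9% and 81.9%, and with SBA alone 77.1% and 76.2%. In the controls of 5 dpi they were 39.3% and 45%, with medians of −0.289 and 0.149, so that there the larger part of each set leaned the other way.

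The called genes were unevenly spread over the chromosomes named in their IDs. Chromosome 18 held 45 of them, 21 higher and 24 lower, which is 2.07% of its 2176 tested genes against 0.823% of all tested genes. Chromosome 16 followed with 33 (1.96%) and chromosome 4 with 31 (1.55%), while chromosome 17 had the smallest share, 7 genes or 0.333%. With SCN alone the share was 11% on chromosome 16 and 9.24% on chromosome 18, against 7.68% of all tested genes, and with SBA alone 5.7% and 4.87%, against 3.63% of all. In controls the shares were 24.8% and 22.9%, against 22.5% of all. Chromosome 16 still had the largest share there, in a range that began at 20.5% on chromosome 2. Under SCN:SBA at 30 dpi both were near the share of all genes (29.3% and 29.5%, against 29.4%).

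**Figure D5:**
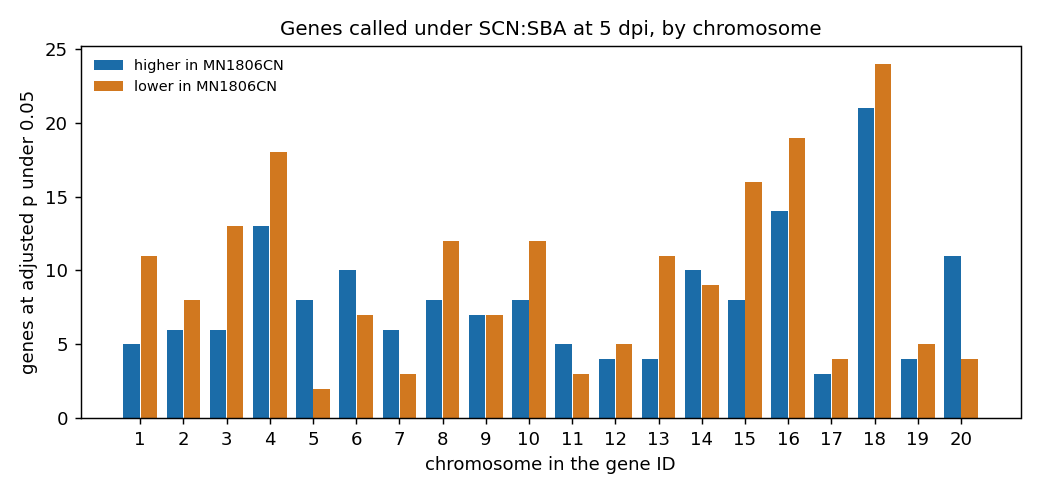
Number of genes called under SCN:SBA at 5 dpi (vertical axis) by the chromosome number in the gene ID (horizontal axis), blue for genes higher and orange for genes lower in MN1806CN. Chromosome 18 has the tallest pair of bars, 21 and 24 genes.

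Within chromosomes most called genes were the only one in their window. The tested genes were ordered by ID and divided into 2131 windows of 20, of which 86.9% held no called gene. A single called gene lay in 225 windows and a pair in 43, while 11 windows held 3 or more and together 43 called genes. The 5 densest had 4 to 6. The window of ranks 1821 to 1840 on chromosome 15 held 3 higher and 3 lower genes, with log2 fold changes of 4.82 to 9.36 in size, and all 6 were called the same way with SCN, with SBA and at 30 dpi. The window of ranks 1901 to 1920 on chromosome 18 held 1 higher and 5 lower genes. The window of ranks 181 to 200 on the same chromosome held 4 higher and 1 lower gene, with means up to 880 CPM in the cultivar with the higher level and changes of 2.26 to 3.99 in size, of which 4 were called the same way with SCN, 5 with SBA, 4 in controls and 5 at 30 dpi. The other 2 windows, on chromosomes 8 and 16, held 4 called genes each. Most of the genes in these 5 windows were thus called in other treatments too.

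Neighbours in ID order shared calls more often than genes in general. Among the called genes on numbered chromosomes, 19 of 161 higher genes (11.8%) had a direct neighbour called higher, which was true of 0.738% of all genes, and 29 of 193 lower genes (15%) had a neighbour called lower, against 0.873% of all genes. Neighbouring genes can be near-identical copies between which the counting splits reads, so their calls are not independent.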

How the data were processed

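The authors checked reads with FastQC 0.11.3 and MultiQC 1.3, trimmed them with Btrim64 and quantified them with Salmon 0.9.1 against primary Wm82.a2.v1 transcripts, and they deposited estimated counts per gene and library without normalization or filter. Of all values 42.7% were not whole, and they were rounded. Totals at 5 dpi were 8472717 to 47902174 counts.

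Genes with at least 0.5 CPM in 1 library, the filter of the study, were tested with edgeR 4.0.16 in R 4.3.3 (TMM normalization, robust quasi-likelihood F test, Benjamini-Hochberg adjustment at 0.05). The fit held the 24 libraries of 5 dpi in the 8 groups of the labels, the 23 of 30 dpi for the later comparison and all 47 for the difference between times. Differences between cultivar contrasts came from the same fits and share the SCN:SBA libraries. A standard error is the absolute log2 fold change divided by the root of its F statistic, an approximation. Plots were drawn with matplotlib 3.10.9.

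The members and lists were chosen with earlier results of these data known. The named genes were those with the largest changes among called genes with no overlap and at least 10 CPM in each library of the higher cultivar, plus the gene called against SCN alone, which was chosen after its values were seen, as were the classes of called genes and their limits. Of the 55983 IDs, 0 matched the reference annotation (assembly Glycine_max_v4.0). Lists and tissue markers defined by product name could therefore not be applied, the root origin was not checked on markers, and only 4 IDs are printed, without annotation or sequence.

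Alternatives were RLE size factors, other filters and sets of libraries in the fit, the replicate number as a block, a minimum fold change (glmTreat), the DESeq2 1.42.0 Wald test, each library left out in turn, other limits for near absence and wider windows.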

Additional observations from a re-analysis of the deposited data

Results flagged for a closer look

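The cultivar difference under SCN:SBA at 5 dpi differed from that in the controls in 5736 genes, as a contrast of both differences in edgeR's quasi-likelihood fit of the 24 libraries of 5 dpi. It differed from that with SCN alone in 1 gene, Glyma.20g098300. Between 5 and 30 dpi the cultivar difference under SCN:SBA differed in 744 genes in a fit of all 47 libraries.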

How the results depend on the processing

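The 355 genes called under SCN:SBA at 5 dpi became 111 with the 6 libraries of the 2 groups fitted alone, 820 with all 47 libraries in the fit (351 of the 355 among them), 172 against a minimum log2 change of 1 and 960 with the DESeq2 Wald test (all 355). Leaving out 1 library gave 172 to 277, and leaving out both control groups, chosen after seeing the data, gave 460. RLE size factors gave 354, no filter 342 and filterByExpr 374. No called gene changed sign in any of these, and the 4 named genes kept sign and call in all 15 alternatives. Against controls, the 5736 genes became 3121 in a fit of the 12 libraries of the 4 groups and 3332 to 9612 with 1 library left out. Against SCN, the 1 gene became 2 in the fit of 12 libraries, 88 with DESeq2 and 0 to 3 with 1 library left out. Against SBA, the 0 genes became 88 with DESeq2, 1 without both control groups and 0 to 2 with 1 library left out. Between the times, the 744 genes became 87 in the fit of 12 libraries and 68 to 1143 with 1 library left out. Where a group was left with 1 or 2 libraries, the fit assumes that they vary like the other groups. The genes at or near 0 in MN1806CN, 6 as reported, were 1 with 0 counts allowed, 23 with a limit of 2 CPM and 7 to 12 with 1 library left out. Those in PI518671, 3 as reported, were 0, 15 and 3 to 13. With windows of 50 genes, 72.1% held no called gene, in place of 86.9%. The causes were not tested beyond what the construction of an alternative shows.

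The plants stood in randomized complete blocks, and per the study's methods the replicates come from 3 of them, but the labels do not say that a replicate number marks a block. Deviations from the group means of same-numbered libraries correlated at −0.238, 0.1 and −0.198, so the numbers were not taken to pair the libraries, and whether they mark shared blocks remains unknown. With the replicate number as a block, 331 genes were called under SCN:SBA, 307 of the 355 among them, 5277 against controls, 3 against SCN, 0 against SBA and 555 between the times.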
